A study of Mus musculus with 2 samples.

Results

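Genes of mitochondrial ribosomal proteins were followed in the hearts of 4 mice on 2 two-colour oligonucleotide arrays. The members were all probes whose gene symbol in the platform annotation begins with Mrpl or Mrps and a number. This gave 75 probes of 74 genes among the 16390 genes named on the array, and 72 of the 74 were detected in all 4 hearts, as were 11698 of the 16390. The mice were male, on a C57BL/6J background and 6 months old, and had been fed freely (ad libitum, AL) or restricted in calories by 40% (CR) for 3 months. One array compared a CR heart with an AL heart of control mice, and the other made the same comparison in mice with a knockout of the deacetylase Sirt1 in cardiomyocytes, which asks how the response to restriction differs without it. Each condition was thus 1 heart. The AL heart carried Cy5 and the CR heart Cy3 on both arrays, so diet and dye cannot be told apart, and each genotype lay on an array of its own, so genotype and array cannot be told apart either. The driver of the knockout is not given in the sources used here, and cells of the heart other than cardiomyocytes are not its target. With 1 heart in each condition there is no replicate check and no test, and every value below describes these hearts.

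The mitochondrial ribosome translates the few messenger RNAs encoded by mitochondrial DNA, all of them for subunits of the respiratory chain and ATP synthase. Its ribosomal RNAs come from mitochondrial DNA, whereas all its proteins are encoded in the nucleus, translated in the cytosol and imported. The large subunit (Mrpl genes) forms peptide bonds and the small subunit (Mrps genes) reads the messenger RNA. Some of these proteins have homologues in bacterial ribosomes and others are specific to mitochondria. Heart muscle is rich in mitochondria, and mutations of MRPL3, MRPL44 and MRPS22 cause mitochondrial cardiomyopathy in humans.

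Between 74.0% and 80.7% of all probes were detected in a heart, which means a spot brightness more than 2 SD above the mean of the 2736 blank spots of the array. Sirt1 itself was measured at log2 signals of 7.11 (control AL), 7.53 (control CR), 7.07 (knockout AL) and 7.51 (knockout CR). Where its probe lies relative to the deleted part is unknown, and whole hearts include cells outside the knockout, so this level checks nothing about the genotype. All 9 cardiomyocyte markers with a probe were detected in all 4 hearts. None of 4 lung markers was detected in all 4, but Sftpc was in 3 hearts, Sftpa1 in 2 and Scgb1a1 in 1. Of 4 adipocyte markers Plin1 and Cfd were detected in all 4 hearts, as were Actn3 and Mylpf of skeletal muscle. These 4 genes were dim, at log2 signals between 5.91 and 6.32. Atrial genes stood apart between the arrays, in both directions. Myl7 was at 10.26 and 10.32 in the control hearts and at 6.31 and 6.26 in the knockout hearts, and Myl4 was at 9.49 and 9.53 against 7.01 and 6.81. Nppa went the other way, at 10.24 and 10.27 against 11.24 and 12.22, and Sln, detected in 3 of the 4 hearts, was between 5.91 and 6.12 in all of them. Since whole hearts were measured, fewer cells of a type and less RNA per cell cannot be told apart in any value that follows. The part of these marker differences in the results on the members was not tested.

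The members gave bright spots: 68 of the 72 were at or above the median signal of all detected genes, a log2 signal of 6.78. The median signal of the members was nearly level across hearts, at 9.43 (control AL), 9.44 (control CR), 9.40 (knockout AL) and 9.43 (knockout CR). These are log2 values of normalized fluorescence, and they compare a gene between hearts but not with another gene, because probes differ in how well they bind. Just inside the detection limit were Mrps14, at 12.7, 12.1, 11.6 and 11.1 scanner units above the blank spots in the order control AL, control CR, knockout AL and knockout CR, and Mrpl15, at 11.6, 7.22, 11.1 and 11.7. Just outside were Mrpl33, at 6.33, 2.0, 3.71 and 5.67, which was not detected in the control CR heart, and Mrpl41, at 6.77, 9.22, 1.69 and 1.86, which was detected in both control hearts and in neither knockout heart. For Mrpl41 the estimated lower bound of control over knockout was 1.08-fold under AL and 1.05-fold under CR. For Mrpl33 that of AL over CR was 1.07-fold in the control mice, and that of knockout over control was 1.03-fold under CR. These bounds set the bright spot against the dimmest detected signal, and they leave the full size of the difference unknown. On the log2 scale they are 0.11, 0.07, 0.10 and 0.04. This is close to or below the SD of up to 0.088 between repeated control spots, so they are no firm limits.

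**Figure D1:**
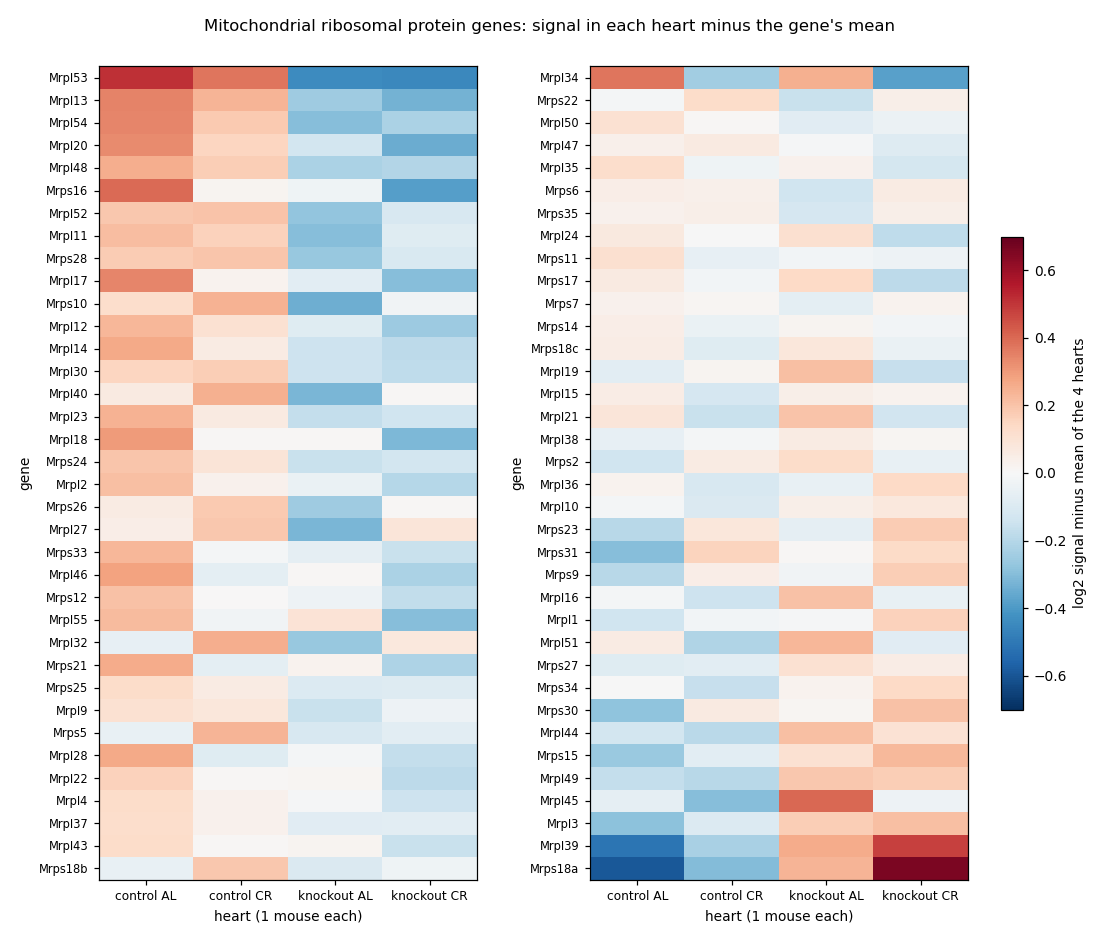
Each row is 1 of the 72 genes and each column 1 heart; the colour gives the log2 signal minus the mean of the gene over the 4 hearts, and rows are ordered by the knockout hearts. Mrpl53 at the top was lower in both knockout hearts, and Mrps18a and Mrpl39 at the bottom were higher in both.

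The response to restriction was small in nearly all members. In the control pair 26 of 72 were higher in the CR heart, against 50.6% of all detected genes, and the median log2 ratio of CR over AL was -0.08, against 0.00 over all detected genes. The interquartile range of the members ran from -0.17 to 0.10. In the knockout pair 34 of 72 were higher, against 49.3% of all detected genes, with a median of -0.01 and an interquartile range from -0.17 to 0.14. On both arrays together 32 members (44.4%) were lower with CR in both pairs, against 33.5% of all detected genes, and 20 (27.8%) were higher in both, against 33.5%. The count of higher members in the control pair moved with the dye correction. With each array centred on its median in place of loess, 40 of 72 were higher and the median was 0.01. Of all genes 60.0% were then higher. In the authors' deposited ratios 20 of 72 (27.8%) were higher in the control pair, against 47.2% of all detected genes, with a median of -0.19. The count also depended on the background. With the brightness around each spot (the local background) subtracted first, 34 of 72 were higher in the control pair, against 44.3% of all detected genes, and both medians were -0.02. In the knockout pair 38 of 72 were then higher, against 45.9%. In that setting 19 members were lower in both pairs, 19 were higher in both, and 34 had opposite signs.

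A difference of 1.5-fold, which is 0.585 on the log2 scale, was reached by 1 member in either pair, and it was the same gene. Mrpl34, the homologue of bacterial ribosomal protein L34 in the large subunit, had log2 signals of 9.25 (AL) and 8.62 (CR) in the control pair and of 9.12 and 8.49 in the knockout pair. Both CR hearts were below both AL hearts. The CR over AL ratio was -0.62 in the control pair and -0.63 in the knockout pair, whereas 0.368% and 0.786% of all detected genes were at least 1.5-fold lower in these pairs. No member was 1.5-fold higher, against 0.88% and 0.786% of all detected genes. Of the 5849 detected genes at or above the median signal, 40 and 82 were at least 1.5-fold lower in the control and knockout pairs. In the same pairs 99 and 91 of these genes were at least 1.5-fold higher. These counts depended on the background. With the local background subtracted first, 2 members of the control pair were past 1.5-fold on the higher side and 3 on the lower side, as were 127 and 162 of all 11698 detected genes. In the knockout pair these counts were 9 and 2, as against 248 and 174 of all genes, the highest being Mrps33 at 2.61, which was at -0.09 without the subtraction. After the subtraction the ratio of Mrpl34 was -0.58 in the control pair, just short of 1.5-fold, and -0.12 in the knockout pair. Median centring in place of loess also ended the call in the control pair, at -0.51. In the authors' deposited ratios Mrpl34 was at -0.77 and -0.74, and Mrpl15, close to the detection limit, was at -1.05 in the control pair and -0.06 in the knockout pair. The promoter of Mrpl34 is shown because it is the member with the lowest ratio in both pairs, with loess and without that subtraction. The 150 bases before its start site (chr8:71464776-71464925, plus strand, GRCm38.p6, from RefSeq) hold 1 match to the ETS core motif, given in capitals.
Mrpl34: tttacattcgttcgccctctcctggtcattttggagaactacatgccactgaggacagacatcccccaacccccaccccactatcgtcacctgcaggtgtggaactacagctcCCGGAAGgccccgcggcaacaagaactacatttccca

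Next to Mrpl34, the lowest members of the control pair were Mrps16, Mrpl46 and Mrpl28. Mrps16, a small subunit protein with a bacterial homologue, had log2 signals of 10.51, 10.13, 10.08 and 9.73 in the order control AL, control CR, knockout AL and knockout CR, and was lower with CR by 0.38 and 0.36 in the control and knockout pairs. Here too the CR heart was the lower one of each pair, and the knockout CR heart was the lowest of all. Mrpl46, a protein of the central protuberance of the large subunit, was at -0.35 and -0.23, and Mrpl28 at -0.35 and -0.16. In the knockout pair Mrpl45, which lies near the exit of the nascent chain and anchors the ribosome to the inner membrane, was at -0.43 (-0.24 in the control pair) and Mrpl55 at -0.39 (-0.25 in the control pair). These ratios depended on the background: with the local background subtracted Mrps16 was at 0.46 in the control pair, Mrpl28 at 0.03, and Mrpl46 at -0.92 and then 0.56 in the knockout pair, while Mrpl45 and Mrpl55 remained below zero in both pairs.

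On the other side, Mrps31 of the small subunit had the highest ratio in the control pair, with log2 signals of 8.70 (AL) and 9.16 (CR). Its ratio was 0.46 there and 0.13 in the knockout pair, where the signals were 9.0 and 9.13. Mrps18a was at 0.29 in the control and 0.42 in the knockout pair, and Mrpl32, a large subunit protein that the m-AAA protease matures inside mitochondria, was at 0.31 and 0.34. These genes were higher with CR in both pairs. Mrpl27 (0.14 and 0.41) and Mrpl40 (0.19 and 0.33), the latter of the central protuberance, completed the highest of the knockout pair. Mrps30, which is a large subunit protein despite its symbol, was at 0.34 and 0.19 with its brightest probe, but its other, dimmer probe gave -0.05 and 0.05, so that value rests on the choice of probe. After local background subtraction Mrps18a was at 0.37 and 0.35 and Mrpl40 at 0.79 and 0.45, whereas Mrpl32 was at -0.37 in the control pair and Mrps31 was reduced to 0.14.

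The subunits differed in their counts. Of 46 large subunit genes 13 were higher with CR in the control pair (median -0.10) and 18 in the knockout pair (median -0.04). Of 26 small subunit genes 13 (median 0.00) and 16 (median 0.05) were higher. Split further, the 28 large subunit proteins with a bacterial homologue had 7 and 9 higher (medians -0.13 and -0.11), and the 10 mitochondria-specific proteins of the small subunit had 7 and 8 higher (medians 0.07 and 0.12). The difference between these classes was not tested. With the local background subtracted, 21 of 46 large subunit and 13 of 26 small subunit genes were higher in the control pair, and 21 of 46 and 17 of 26 in the knockout pair.

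**Figure D2:**
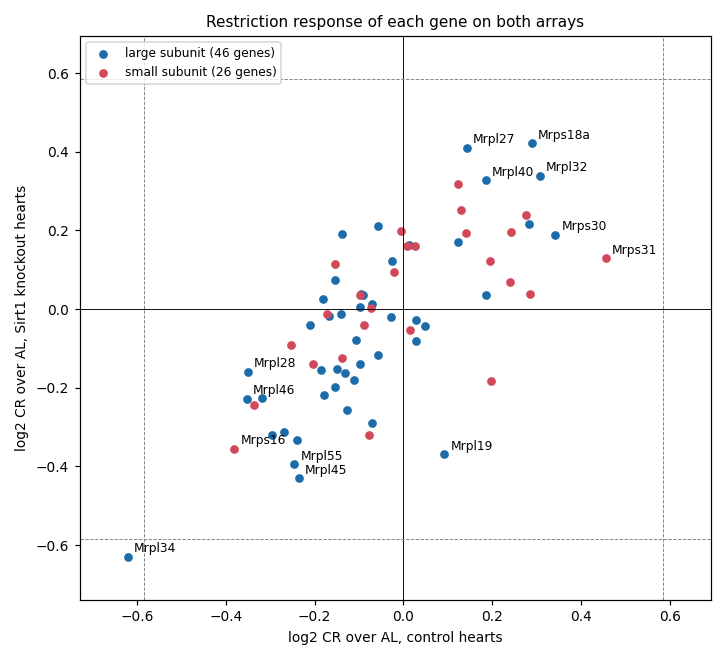
Each point is 1 gene; the axes give the log2 ratio of CR over AL in the control pair and in the knockout pair, and dashed lines mark 1.5-fold. Most points lie within 0.4 of zero on both axes, and Mrpl34 is the one gene beyond 1.5-fold on both.

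Across the 72 members the ratios of both arrays ran together (Pearson's r 0.718, Spearman's rho 0.704), as they did across all 11698 detected genes (r 0.597, rho 0.538). The arrays held different mice but the same dye for the same diet, so a bias of a probe between dyes would enter both ratios alike. With the local background subtracted r across members was -0.01, and across all detected genes it also fell, to 0.17. These correlations are across genes, which are not independent replicates.

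The knockout hearts gave lower values than the control hearts for most members. Under AL 24 of 72 were higher in the knockout heart, against 52.4% of all detected genes, with a median log2 ratio of -0.13, against 0.01 over all detected genes. Under CR 26 of 72 were higher, against 50.7%, and the median was again -0.13, against 0.00. Under both diets 41 members (56.9%) were lower in the knockout heart, against 35.4% of all detected genes, and 19 (26.4%) were higher in both, against 38.5%. Both knockout hearts lay below both control hearts in 28 members (38.9%) and above them in 12 (16.7%), whereas 24.6% and 26.8% of all detected genes were split in these ways. The comparisons under AL and CR lie on the same pair of arrays, so their agreement is no second observation.

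The size of these values depended on the background. After subtraction of the local background the interquartile range of the members under AL widened from -0.30 to 0.11 into -0.94 to 0.94. Then 32 of 72 were higher with a median of -0.07 under AL, against 50.6% of all detected genes with a median of 0.00. Under CR 36 of 72 were higher with a median of 0.00, against 50.8% with a median of 0.01, so the lower median under CR was lost. In that setting 22 members were past 1.5-fold on the higher side and 25 on the lower side under AL, as were 1244 and 1212 of all 11698 detected genes. Scaling the arrays to equal medians instead left 18 members higher under AL (median -0.27) and 16 under CR (median -0.23). No share of all detected genes is given beside these scaled counts, so they do not show whether the members moved more than other genes.

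Without that subtraction 3 members were at least 1.5-fold lower in the knockout heart under AL, against 1.93% of all detected genes, and 1 under CR, against 1.09%. Most members are bright. Of the 5849 detected genes at or above the median signal, 222 were this much lower under AL and 123 under CR. Among the 68 members at or above it, 3 and 1 were. Mrpl53, a mitochondria-specific protein of the large subunit, had the largest difference. Its log2 signals were 10.72 and 10.58 in the control AL and CR hearts and 9.77 and 9.76 in the knockout AL and CR hearts. Both knockout hearts were well below both control hearts, and diet made little difference in either pair. The knockout over control ratio was -0.96 under AL and -0.83 under CR, and -2.10 and -2.19 with the local background subtracted. It was past 1.5-fold lower under every one of the 10 alternative settings. Among these, the detection and signal filters and the mean of probes could not change its value, because Mrpl53 has a single, bright probe. Its promoter is printed as that of the member farthest below the control hearts (chr6:83108958-83109107, plus strand, GRCm38.p6, from RefSeq). It holds a pair of ETS core matches, in opposite orientation, which start 59 and 16 bases before the start site.
Mrpl53: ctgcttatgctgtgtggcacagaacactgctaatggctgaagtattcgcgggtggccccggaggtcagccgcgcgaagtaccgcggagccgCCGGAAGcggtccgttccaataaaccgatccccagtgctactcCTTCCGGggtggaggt

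Mrpl13, the homologue of bacterial L13 in the large subunit, had log2 signals of 10.58 and 10.47 in the control AL and CR hearts and of 9.98 and 9.90 in the knockout hearts. Its ratios were -0.60 under AL and -0.57 under CR, the latter just short of 1.5-fold. Mrpl54, a mitochondria-specific protein of the large subunit, was at 10.26 and 10.10 in the control hearts and at 9.62 and 9.70 in the knockout hearts. Both genes were thus lower in each knockout heart than in either control heart. The ratios of Mrpl54 were -0.64 and -0.41, but with the local background subtracted they turned to 0.62 and 0.64, so its direction depends on this step. Mrpl13 was then at -0.99 and -1.22. Mrpl11, a protein of the stalk base, was at -0.51 under AL and -0.24 under CR, and Mrpl20, which has a bacterial homologue that acts early in large subunit assembly, was at -0.46 and -0.50. With the local background subtracted these stood at -2.09 and -1.11 (Mrpl11) and at -2.62 and -2.62 (Mrpl20).

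At the other end 2 members were at least 1.5-fold higher in the knockout heart under AL, against 2.83% of all detected genes, and the same 2 under CR, against 1.47%. Of the 5849 detected genes at or above the median signal, 317 were this much higher under AL and 159 under CR. Among the 68 members at or above it, 2 and 2 were. Mrps18a, a paralogue of the bacterial S18 family that sits in the large subunit, had log2 signals of 9.06 and 9.35 in the control AL and CR hearts and of 9.89 and 10.31 in the knockout AL and CR hearts. Both knockout hearts were above both control hearts, and in each genotype the CR heart was above the AL heart. Its ratios were 0.83 under AL and 0.96 under CR, and 2.54 and 2.52 with the local background subtracted. Mrpl39, a large subunit protein related to threonyl-tRNA synthetase, was at 9.13 and 9.42 in the control hearts and at 9.90 and 10.12 in the knockout hearts. It had the same order of hearts as Mrps18a. The ratios of Mrpl39 were 0.77 and 0.70, and 1.56 and 1.39 with the local background subtracted. Under CR it was at 0.56, short of 1.5-fold, with the arrays scaled to equal medians.

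The promoters of both are shown, since these are the members that stood above the control hearts. That of Mrps18a (chr17:46110854-46111003, plus strand) holds an ETS core match starting 26 bases before the start site, and a YY1 match starts 11 bases after it, beyond the printed stretch. That of Mrpl39 (chr16:84735245-84735394, minus strand) holds a palindromic NRF1 match, in capitals, that starts 125 bases before the start site. Both are from RefSeq, GRCm38.p6.
Mrps18a: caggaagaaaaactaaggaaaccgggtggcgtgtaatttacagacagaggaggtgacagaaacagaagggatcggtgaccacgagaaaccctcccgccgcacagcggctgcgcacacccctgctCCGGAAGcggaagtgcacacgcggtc
Mrpl39: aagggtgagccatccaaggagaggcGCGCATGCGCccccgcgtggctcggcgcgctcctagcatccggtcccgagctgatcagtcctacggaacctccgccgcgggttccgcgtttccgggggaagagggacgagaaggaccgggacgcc

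Among the other high members Mrpl3, a core protein of the large subunit, had log2 signals of 10.10 and 10.29 in the control AL and CR hearts and of 10.56 and 10.60 in the knockout hearts, giving ratios of 0.46 and 0.31. Mrpl45 was at 9.96, 9.72, 10.42 and 9.98 in the order control AL, control CR, knockout AL and knockout CR, with ratios of 0.46 and 0.26. Mrpl49 was at 0.36 and 0.37, and Mrpl44, a protein related to RNase III, at 0.34 and 0.28. For each of these 4 genes both knockout hearts lay above both control hearts, in Mrpl45 by a narrow margin. None of them reached 1.5-fold, but with the local background subtracted Mrpl3 was at 2.02 and 2.09, Mrpl49 at 2.19 and 2.19, and Mrpl44 at 1.16 and 1.17. The 8 members named here for the highest and lowest genotype ratios under AL all belong to the large subunit, as do 46 of the 72 members. This held only without the subtraction. After local background subtraction the extremes under AL were small subunit genes, Mrps33 at -5.17 and Mrps21 at 3.56.

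**Figure D3:**
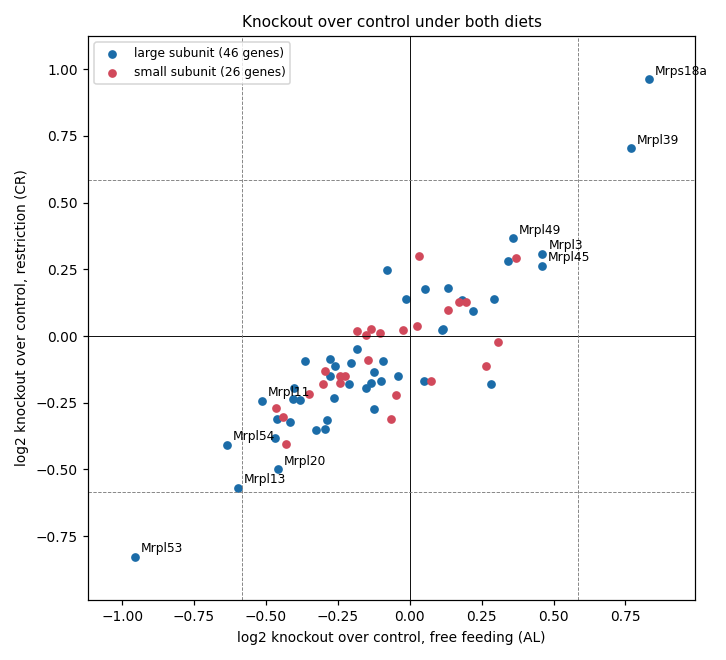
Each point is 1 gene; the axes give the log2 ratio of knockout over control under AL and under CR, and dashed lines mark 1.5-fold. Mrpl53 lies at the lower left and Mrps18a and Mrpl39 at the upper right, apart from the other members.

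Across members the AL and CR ratios had an r of 0.872 (rho 0.820), and across all detected genes it was 0.778. The points share arrays, and the correlation is across genes. By class, 7 of 28 large subunit proteins with a bacterial homologue were higher in the knockout heart under AL and 7 under CR (medians -0.18 and -0.17). Of the 18 mitochondria-specific proteins of the large subunit 8 were higher under either diet (medians -0.11 and -0.08), and this class held both the lowest and the highest member. Of 16 conserved small subunit proteins 5 and 7 were higher (medians -0.12 and -0.13), and of 10 mitochondria-specific ones 4 and 4 (medians -0.10 and -0.06). No small subunit gene reached 1.5-fold, the extremes under AL being Mrps10 at -0.46 and Mrps15 at 0.37. After local background subtraction these were at -2.71 and 2.23, and 21 of 46 large subunit and 11 of 26 small subunit genes were higher under AL. In that setting 7 small subunit genes were past 1.5-fold on the higher side and 9 on the lower side under AL, as were 1244 and 1212 of all 11698 detected genes.

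Other proteins of the same ribosome are listed on the array under other symbols, including Mrpl57 and Mrpl58, which the platform calls by older names. All 5 that were detected were lower in the knockout heart under both diets (median -0.15 with AL feeding and -0.20 with CR), as were 35.4% of all detected genes. After local background subtraction 4 of the 5 were lower under each diet (medians -0.60 and -0.85), and Mrpl57 was at 0.12 and 0.01. Chchd1, a small subunit protein, had log2 signals of 10.15 and 10.03 in the control AL and CR hearts and of 9.23 and 9.31 in the knockout hearts, with ratios of -0.92 and -0.71. Gadd45gip1, a large subunit protein also known as CRIF1, was at 8.43 and 8.76 in the control hearts and at 7.87 and 7.75 in the knockout hearts, with ratios of -0.57 and -1.0. In both genes the knockout hearts were below the control hearts. Ptcd3, a pentatricopeptide repeat protein of the small subunit, was at -0.04 and -0.15. After local background subtraction Chchd1 was at -1.40 and -1.74 and Gadd45gip1 at -0.60 and -1.27.

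The factors that work with the ribosome were followed next. Of 14 mitochondrial translation factors 9 (64.3%) were higher in the knockout heart under each diet (medians 0.32 and 0.16), against 52.4% and 50.7% of all detected genes. Gfm1, the elongation factor that moves the ribosome along its messenger, had log2 signals of 10.09 and 10.33 in the control AL and CR hearts and of 11.18 and 10.97 in the knockout hearts, with ratios of 1.09 and 0.64. Lrpprc, which stabilizes mitochondrial messenger RNAs, was at 0.62 and 0.54, whereas its partner Slirp was the lowest of the list at -0.55 and -0.35. The initiation factor Mtif2 was at 0.57 and 0.21 and Oxa1l, which inserts the new chains into the inner membrane, at 0.51 and 0.28. The ratios of Tsfm, 0.42 and 0.32, turned to -1.35 and -0.95 with the local background subtracted, while Gfm1 was at 1.56 and 1.69 and Slirp at -0.24 and 0.01. In that setting 10 of the 14 were higher under each diet.

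Of 17 tRNA charging enzymes 10 (58.8%) were higher under AL and 11 (64.7%) under CR (medians 0.12 and 0.11), against the same shares of all genes, and 11 and 9 were higher with the local background subtracted. The highest ratios under AL included the arginyl-tRNA synthetase Rars2 at 0.72 and 0.33 and the threonyl-tRNA synthetase Tars2 at 0.71 and 0.62 (0.57 and 0.14, and 1.17 and 0.81, with the local background subtracted). Of 21 genes of ribosome assembly and rRNA modification 12 and 15 were higher (medians 0.01 and 0.02). None of them reached 1.5-fold, with Mrm3 at 0.43 and Malsu1 at -0.27 as the extremes under AL. After local background subtraction 4 were past 1.5-fold on the higher side and 6 on the lower side under AL, with Mtg1 at 2.01, Mrm3 at 1.21 and Ngrn at -1.22, and 8 and 10 of the 21 were higher under AL and CR. Of 12 genes of mitochondrial DNA transcription and maintenance 6 and 7 were higher (medians 0.02 and 0.08), with the transcription factor Tfam at 0.51 and 0.13, and at 0.12 and 0.39 with the local background subtracted. These differences between lists were not tested.

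**Figure D4:**
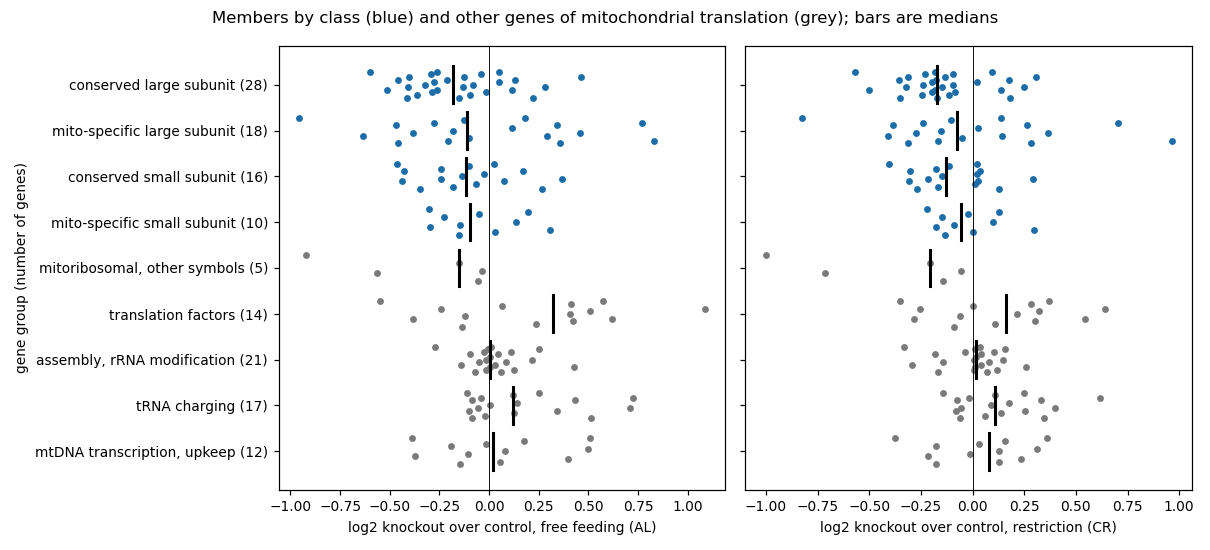
Each point is 1 gene and each bar the median of its group; the axes give the log2 ratio of knockout over control under AL (left) and CR (right). Without subtraction of the local background the classes of members (blue) have medians below zero, and the translation factors (grey) have theirs at 0.32 and 0.16.

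With restriction most of these lists stayed near zero. The 5 proteins of the ribosome under other symbols had medians of CR over AL of -0.02 in the control pair and -0.11 in the knockout pair. Of these 3 were lower in the control pair, against 49.4% of all detected genes, and 4 in the knockout pair, against 50.7%. With the local background subtracted 2 and 5 were lower, against 55.7% and 54.1%. Medians of CR over AL in the control and knockout pairs were 0.04 and 0.03 for the translation factors, 0.03 and 0.01 for assembly and rRNA modification, 0.04 and 0.07 for tRNA charging and 0.01 and 0.03 for mitochondrial DNA. The one gene past 1.5-fold was Qrsl1, a subunit of the amidotransferase that makes glutaminyl-tRNA, at -0.61 in the knockout pair and -0.01 in the control pair. Its log2 signals were 8.19, 8.18, 8.71 and 8.10 in the order control AL, control CR, knockout AL and knockout CR, so the knockout AL heart stood above the other three. The low ratio of Qrsl1 in the knockout pair was -0.15 with the local background subtracted.

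Proteins of the cytosolic ribosome also lay lower in the knockout hearts. Of 56 detected, 8 were higher under AL and 13 under CR, against 52.4% and 50.7% of all detected genes. Their medians were -0.29 and -0.20, against -0.13 and -0.13 for the mitochondrial members. After local background subtraction 22 and 21 of the 56 were higher, with medians of -0.13 and -0.11. With restriction their medians were -0.06 and 0.02 in the control and knockout pairs. Cell type markers also differed between the genotypes, and their counts stand beside the same 52.4% (AL) and 50.7% (CR) of all detected genes. Cardiomyocyte markers were higher in the knockout AL heart in 7 of 9 (median 0.28) and in the CR heart in 6 of 9 (median 0.19, and 0.07 with the local background subtracted). Their summed signal was 171100 and 166700 in the control AL and CR hearts and 189800 and 171000 in the knockout hearts. Fibroblast markers were higher in 7 of 8 under each diet (medians 0.55 and 0.19), with sums of 3253 and 2468 in the control hearts and 3642 and 2814 in the knockout hearts. Of these fibroblast markers 5 of 8 were higher under each diet after that subtraction (medians 0.20 and 0.13). Endothelial markers were mostly lower, with 3 of 8 higher under AL and 2 of 8 under CR (medians -0.02 and -0.11), and their sums were 2444 and 2092 in the control hearts and 2050 and 1446 in the knockout hearts. After that subtraction 1 of these 8 was higher under each diet (medians -0.22 and -0.35). Smooth muscle and pericyte markers were higher in 6 of 7 under AL and 5 of 7 under CR (medians 0.10 and 0.04). Markers of macrophages and other leukocytes had the same counts (medians 0.16 and 0.05). After the subtraction these counts were 4 and 3 for smooth muscle and pericytes and 4 and 4 for leukocytes. Atrial markers were detected in all hearts for 3 of 4 genes and had medians of -2.47 and -2.71, with sums of 3009 and 3104 in the control hearts and 2471 and 4821 in the knockout hearts, the last mostly from Nppa. The part of these cell types in the ratios of the members was not tested.

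The response to restriction was compared between the genotypes as the ratio in the knockout pair minus that in the control pair. Of 72 members 41 had a positive difference, against 49.0% of all detected genes, with a median of 0.03 and an interquartile range from -0.07 to 0.13. In the authors' deposited table of ratios, 55 of 72 members had a positive difference, with a median of 0.15, against 50.2% of all detected genes there. The deposited difference was past 1.5-fold in Mrpl15, at 0.98, and in Mrps2, at -0.79, which are both among the 5 dimmest members. In the ratios normalized here no member reached 1.5-fold in either direction, against 0.376% of all detected genes above and 0.513% below. This too depended on the background: with the local background subtracted 10 members were past 1.5-fold above and 4 below, as were 381 and 256 of all 11698 detected genes, from Mrps5 at -0.95 to Mrps33 at 2.77. The ratios of both pairs had opposite signs in 20 members (27.8%), against 32.9% of all detected genes. In 4 members (5.56%) each ratio was also past the largest SD between repeated control spots (0.088), against 4.09% of all detected genes. Noise alone can pass that margin. The lowest was Mrpl19, with log2 signals of 8.98 and 9.08 in the control AL and CR hearts and of 9.26 and 8.89 in the knockout pair. Restriction thus went with a slightly higher value in the control pair (0.09) and a lower one in the knockout pair (-0.37), a difference of -0.46. At the other end was Mrpl36, the homologue of bacterial L36, at 9.97 and 9.83 in the control pair and at 9.89 and 10.08 in the knockout pair, with a difference of 0.33. Mrps2 had a difference of -0.38, Mrps31 of -0.33 and Mrps5 of -0.25, and Mrpl11, Mrps34 and Mrpl27 were each at 0.27. With the local background subtracted the difference turned to 0.35 in Mrpl19 and to 0.09 in Mrps31 and was 0.0033 in Mrpl36, while Mrps2 was at -0.34 and Mrps34 at 0.30. In the same setting Mrps5, at -0.95, and Mrpl11, at 0.98, were past 1.5-fold, and Mrpl27 was at 0.42.

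The promoters of the members share features that played no part in choosing them. RefSeq promoters of 300 bases, 250 before and 50 after the start site (GRCm38.p6), were matched by symbol for 65 of the 74 members. Exact motifs were searched on both strands, and none of the motifs contains another. The ETS core CCGGAAG, bound by GABPA among others, was present in 23 of 65 members (35.4%), against 16.3% of 9354 other detected genes and 9.12% of all 27025 promoters. The NRF1 motif GCATGCGC was in 8 (12.3%), against 5.0% and 2.8%, and the YY1 motif AAGATGGCG in 7 (10.8%), against 2.9% and 1.49%. In all 32 of the 65 held at least 1 of these 3. NRF1 and GABPA are known regulators of nuclear genes for mitochondrial proteins.

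Other motifs had a share in the members that was level with or below that in the other detected genes. The cyclic AMP response element TGACGTCA was in 3.08%, against 3.04% of the other detected genes and 1.88% of all promoters, and the E-box CACGTG in 7.69%, against 9.97% and 7.24%. The Sp1 core GGGCGG was in 47.7%, against 60.8% and 35.9%. The median GC content of the members' promoters was 58.3%, against 60.3% and 52.7%. The 22 detected members with an ETS match and the 41 without had medians of knockout over control of -0.15 and -0.12 under AL and of -0.14 and -0.11 under CR. Their medians of CR over AL were -0.14 and -0.07 in the control pair and -0.11 and 0.01 in the knockout pair. For YY1 the medians of knockout over control were -0.09 (7 genes with a match) and -0.15 (56 without) under AL and 0.03 and -0.15 under CR, and for NRF1 -0.15 (7 with) and -0.13 (56 without) under AL and -0.18 and -0.12 under CR. These splits were not tested. A match shows only that the letters are present and is no evidence of binding.

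Many members also start back to back with another gene. In 24 of 65 (36.9%) the start site faced away from that of a neighbour within 1000 bases, against 15.3% of the other detected genes and 10.5% of all. One such pair joins both subunits: the starts of Mrps11 of the small subunit and Mrpl46 of the large subunit are 42 bases apart. The 41 bases between them (chr7:78783090-78783130, GRCm38.p6, written on the strand of Mrps11) are printed as an example of a stretch that serves a pair of members, with its Sp1 core in capitals.
Mrps11: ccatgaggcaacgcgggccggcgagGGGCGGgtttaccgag

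Mrps11 had log2 signals of 9.16, 8.99, 9.03 and 9.01 in the order control AL, control CR, knockout AL and knockout CR, and Mrpl46 of 9.46, 9.11, 9.19 and 8.96. In both genes the control AL heart was the highest. Their CR over AL ratios were -0.17 and -0.35 in the control pair and -0.01 and -0.23 in the knockout pair. Mrpl47, 308 bases from the complex I gene Ndufb5, was at 0.03 in the control pair where its neighbour was at -0.43. Mrpl49, 192 bases from Fau, which encodes a cytosolic ribosomal protein fused to a ubiquitin-like sequence, had a knockout over control ratio of 0.36 under AL where Fau was at -0.36. Of the 16 such pairs in which both genes were detected, Mrps11 and Mrpl46 counted once, 12 had the same sign of knockout over control under AL and 8 under CR. For CR over AL 9 had the same sign in the control pair and 11 in the knockout pair. Members and partners both had medians below zero under AL (-0.14 and -0.11), and no share for unrelated pairs is given. These counts therefore do not show that neighbours go together.

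**Figure D5:**
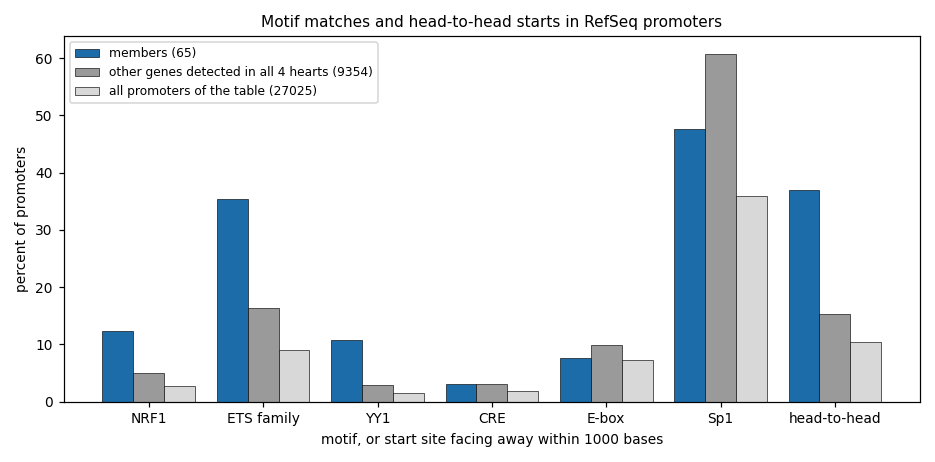
Bars give the percent of promoters with at least 1 match to a motif, or with a start site facing away from a neighbour's within 1000 bases, for the members, the other detected genes and all RefSeq promoters of the table. ETS, NRF1, YY1 and back to back starts have higher shares in the members, at 35.4%, 12.3%, 10.8% and 36.9%.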

How the data were processed

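RNA of 4 hearts was measured on 2 arrays. The deposited scanner files hold spot intensity at both wavelengths, per the file headers, and the log2 ratios (CR relative to AL, per the labels) in the authors' deposited table were rebuilt from the Cy3 and Cy5 signals above the blank mean and a constant: 17404 of 17405 and 16554 of 16555 values lay within 0.001, and its column medians were -2.885e-06 (control) and 8.079e-05 (knockout). Software and genome build: not given in the sources used here.

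Intensities without local background were corrected with normexp (offset 50), normalized by loess within arrays and Aquantile between them (limma 3.58.1, R 4.3.3; control and scanner-marked spots had weight 0), and the steps were tested on simulated data. A spot was detected more than 2 SD above the blank mean after trimming 5% at each end. Of 23473 probes, 16631 had 1 symbol (12622 current, 3947 updated through a synonym, 62 unmatched) and 6842 none. The brightest probe stood for a gene. The alternatives were subtraction of the local background, offset 0, median centring, loess by block, the mean of probes, no filter, 3 SD, genes above the median signal, the authors' ratios, and median or quantile scaling between arrays.

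Named members were the 4 highest and 4 lowest in each of 5 comparisons, those past 1.5-fold, and those at the detection limit; of the other lists, the 2 highest and 2 lowest and those past 1.5-fold. Mrpl44, Mrps14, Mrps11, Mrpl47 and Mrpl49 were also named for background, detection or promoters. Members and lists were chosen with earlier results of these data known. The number of arrays limits the precision: positive control spots (24 of each kind) had SDs of log2 ratios of up to 0.088, which is spot noise and not the spread between mice. Probe sequences were not used here, so binding of related transcripts was not checked.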

Additional observations from a re-analysis of the deposited data

Results flagged for a closer look

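In 4 members restriction went with opposite directions in the 2 genotypes, with 1 heart in each condition. Each ratio was past the largest SD between repeated control spots (0.088), a margin that noise alone can pass. These are 5.56% of the members, against 4.09% of all detected genes, and opposite signs of any size were seen in 20 of 72 members (27.8%), against 32.9%. Mrpl36 was at -0.14 in the control pair and 0.19 in the knockout pair (difference 0.33), and Mrps34 at -0.15 and 0.11 (difference 0.27). Mrpl19 was at 0.09 and -0.37 (difference -0.46), and Mrps2 at 0.20 and -0.18 (difference -0.38). With the local background subtracted the differences were 0.0033, 0.30, 0.35 and -0.34, and the directions of Mrpl36 (0.17 and 0.17) and Mrpl19 (0.02 and 0.38) were no longer opposite. They were not tested.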

How the results depend on the processing

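No paired analysis was possible because each condition was 1 heart and the labels give no replicate numbers. The median of the members between the genotypes under CR turned from -0.13 to 0.0044 with the local background subtracted, and Mrpl54 under AL to 0.62. With median centring in place of loess the median of CR over AL in the control pair turned from -0.08 to 0.013, with 40 members higher. With median scaling between arrays the genotype medians were -0.27 under AL and -0.23 under CR, with 16 members higher under CR. No share of all detected genes is given beside this count. With the authors' deposited table the median of CR over AL in the control pair was -0.19 and that of the difference between the genotypes 0.15, with 55 of 72 members above zero. The causes were not tested. Under 3 SD detection, no filter, genes above the median signal, offset 0, loess by block and mean of probes, the medians of the members in all 5 comparisons kept their sign and moved by less than the spot noise of 0.088. The same held for quantile scaling, which was run for the 2 genotype medians only. The filters and the mean of probes leave nearly every single value unchanged, so they could move these medians only a little. The median near zero of CR over AL in the knockout pair, -0.01, was 0.05 with the local background subtracted and 0.03 with median centring. Signal over background limits Mrps14 and Mrpl15 most, where the offset of 50 shrinks ratios.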
